A study of Mus musculus with 8 samples.

Results

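The genes described are 8 that store iron in ferritin or move it inside the cell: Fth1, Ftl1, Ncoa4, Mcoln1, Pcbp1, Pcbp2, Slc25a37 and Slc25a28. They were taken by symbol from a deposited normalised table of 13751 genes. All 8 passed the filter on low counts and stood among 13378 genes tested. RNA was sequenced from wild-type C57BL/6 CD4 T cells that had been sorted as naive cells from peripheral lymph nodes and activated for 20 h in culture by coated anti-CD3 and anti-CD28, both used at 4 µg/mL. The FAC group holds 4 cultures with an iron supplement that the labels call FAC, 1 from each of mice 1 to 4. The control group holds 4 cultures of the same mice, activated in the same way without the supplement. The labels give neither the dose of FAC nor a vehicle, and the cells were studied in culture, apart from other cells of the lymph node. Library totals ran from 25410267 to 37350609 counts. The summed CD4 T cell markers Cd3e, Cd3g, Cd4, Trac, Lck and Cd28 were at 2037 to 2087 CPM (counts scaled to a common library total) in FAC libraries and 1971 to 2080 CPM in control libraries. Tfrc, the transferrin receptor gene, whose transcript is degraded in iron-replete cells, was at 544 to 617 CPM with FAC and 958 to 1030 CPM in controls.

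Ferritin is a hollow shell built of heavy and light chains, in which iron is oxidised and stored as a mineral. Poly(rC)-binding proteins hand iron to ferritin, the receptor NCOA4 carries ferritin to the lysosome for breakdown, the channel mucolipin 1 lets iron out of the lysosome, and mitoferrins take it into mitochondria for haem and iron-sulphur clusters. Cells set the amount of ferritin largely at translation. Iron regulatory proteins bind a hairpin in the leader of ferritin mRNAs and block the ribosome when iron is scarce, so mRNA and protein levels can part.

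That hairpin, the iron-responsive element, is shown for both ferritin genes because it is the site of this control and sets them apart from the other 6 genes. A search of the 5′ leaders of 21599 protein-coding genes in GENCODE M21 (build GRCm38, the strand of the mRNA) looked for a bulged C, 5 bases, the loop CAGTGN with N not G, and 5 bases that pair with the first 5. It found 23 genes (0.106%), among them Fth1 and Ftl1 and no other gene of the 8. G-T pairs were counted as pairing. Without the pairing rule 1868 genes (8.65%) matched, 4 of the 8 among them. The element stood in 4 Fth1 transcripts and 1 Ftl1 transcript. The loop is in capitals:
Fth1 iron-responsive element: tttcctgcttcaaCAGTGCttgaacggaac
Ftl1 iron-responsive element: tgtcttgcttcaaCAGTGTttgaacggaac
The elements are identical at 27 of 30 bases. A match is a description of the sequence and was not measured here as binding.

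Per transcript length, the 8 genes formed a high and a low tier in both groups, in TPM (RSEM's transcript abundance per length, scaled to the same total in each library). Pcbp2 averaged 932 ± 35.1 TPM with FAC and 982 ± 28 TPM in controls (SD, n = 4 each), and it lay above the other 7 genes in every library. With FAC, Fth1 (626 ± 25.7 TPM), Ftl1 (613 ± 27.9 TPM) and Pcbp1 (599 ± 28.6 TPM) followed, with overlapping ranges. In controls the order was Pcbp1 (604 ± 26.8 TPM), Fth1 (585 ± 31.9 TPM) and Ftl1 (524 ± 19.4 TPM), where neighbours overlapped but Pcbp1 and Ftl1 did not. Fth1 ranked between 201 and 246 among all genes by TPM over the 8 libraries, and Ftl1 between 205 and 264. The low tier began with Ncoa4 at 57.7 ± 4.3 TPM with FAC and 45.6 ± 3.92 TPM in controls. Slc25a37 averaged 29 ± 2.85 TPM with FAC and 24.3 ± 1.89 TPM in controls, Slc25a28 27.3 ± 1.72 and 22.8 ± 3.12 TPM, and Mcoln1 22.7 ± 0.569 and 17.6 ± 2.39 TPM. The mitoferrin genes overlapped each other in range in both groups. The lowest Slc25a28 library with FAC (25.2 TPM) stood above the highest Mcoln1 library with FAC (23.4 TPM), whereas the 2 genes overlapped in controls.

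**Figure D1:**
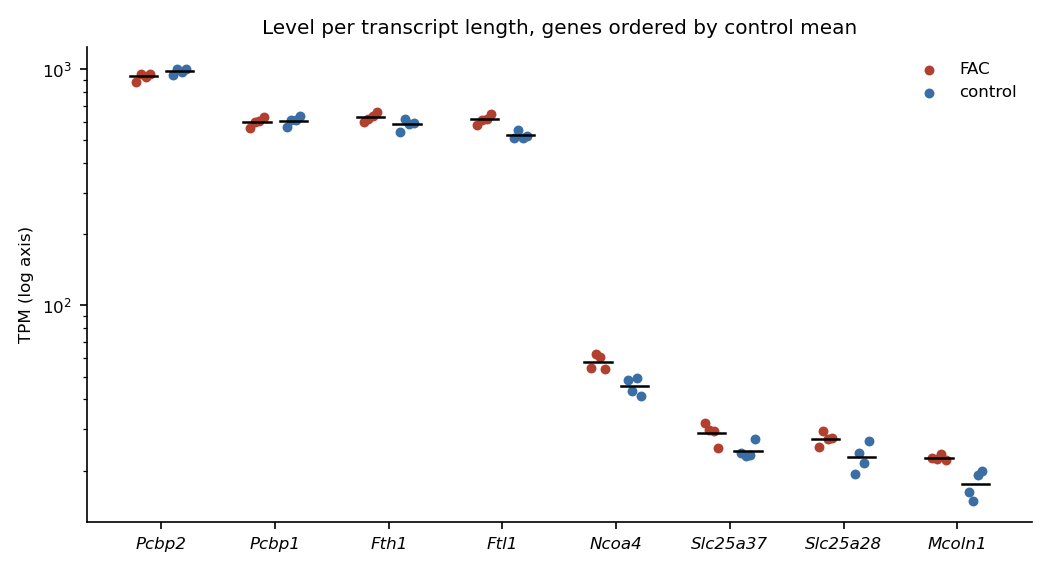
TPM (log axis) of the 8 genes in 4 FAC and 4 control libraries, ordered by the control mean. Points are libraries and lines are group means. Pcbp2, Pcbp1, Fth1 and Ftl1 lie at or above 510 TPM in every library, and the other 4 genes lie at or below 62.4 TPM.

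In the comparison of FAC with control over all 13378 genes, 5 of the 8 genes rose and 3 did not pass the test. The 5 were Ftl1, Ncoa4, Mcoln1, Slc25a37 and Slc25a28, and the 3 were Fth1, Pcbp1 and Pcbp2. The test was edgeR's quasi-likelihood test with Benjamini-Hochberg adjustment over all genes and a call at an adjusted p under 0.05, and of all genes tested 3.27% were called, 2.18% higher with FAC. The changes were small, with a median log2 change over the 8 genes of 0.20, beside -0.0014 over all tested genes. In 3 of the 8 genes (Ncoa4, Mcoln1 and Slc25a28) every FAC library lay above every control library, which held for 6.17% of all tested genes, and in none of the 8 did all lie below (4.89% of all genes). The same 5 genes were called with the mouse as a replicate block, where 6.87% of all genes were called and 4.07% were higher. In bulk RNA, fewer or more cells of a type cannot be told apart from less or more RNA per cell.

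**Figure D2:**
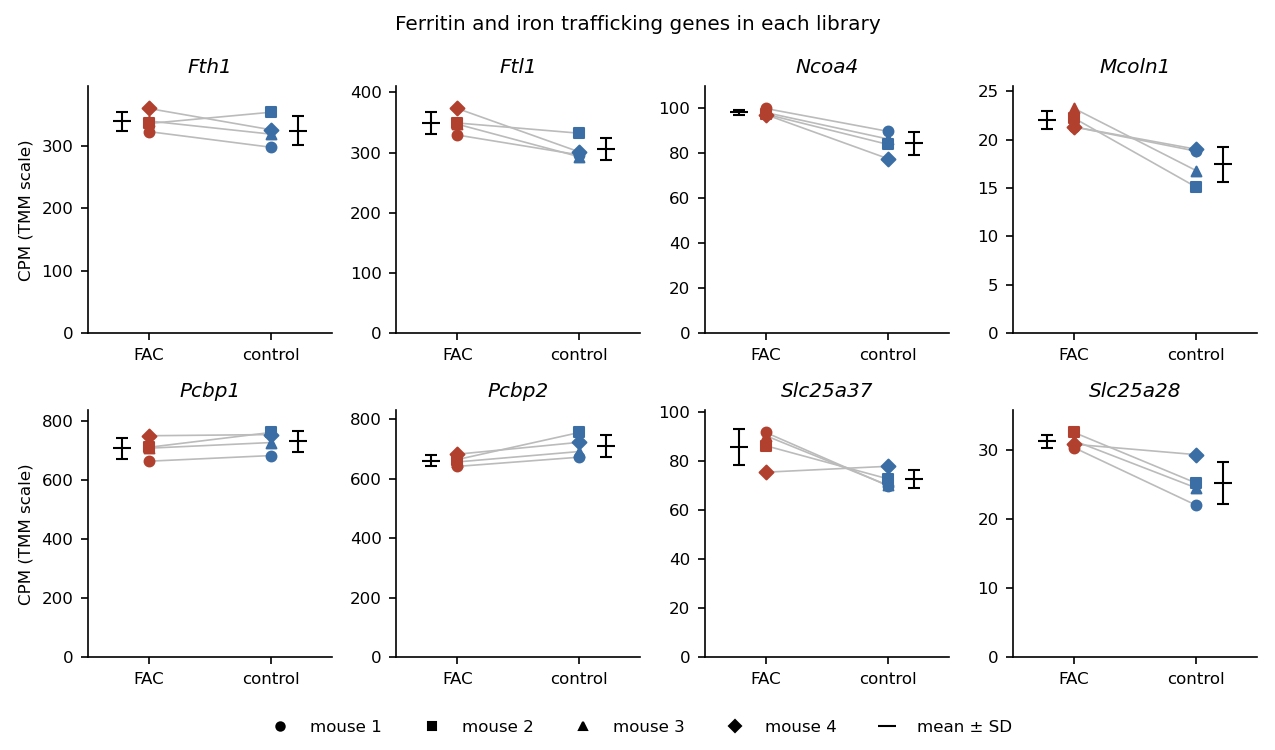
CPM on the TMM scale of each gene in FAC and control libraries, with a grey line joining the 2 cultures of a mouse and bars for the mean ± SD. All 4 FAC libraries lie above all 4 control libraries for Ncoa4, Mcoln1 and Slc25a28, and the groups overlap for the other 5 genes.

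Among the storage genes, Ftl1 rose and Fth1 did not pass the test. Ftl1 (ENSMUSG00000050708, chromosome 7) encodes the light chain, which helps form the iron mineral. It had 329, 349, 347 and 373 CPM in the FAC libraries of mice 1 to 4, against 296, 332, 293 and 301 CPM in the control libraries of those mice. Every mouse was higher with FAC, and the groups overlapped only through FAC 1 and control 2. The log2 change was 0.19 (SE 0.05, edgeR adjusted p = 0.0449). Fth1 (ENSMUSG00000024661, chromosome 19) encodes the heavy chain, which carries the ferroxidase activity. It had 323, 336, 340 and 360 CPM in FAC libraries, against 298, 354, 319 and 326 CPM in control libraries. Mouse 2 was lower with FAC and the other 3 mice were higher. The log2 change was 0.07, with a 95% interval of -0.04 to 0.17 (edgeR adjusted p = 0.525). The Ftl1 call ended without FAC 2, 3 or 4 (0.149, 0.139 and 0.0816) and without control 1, 3 or 4 (0.13, 0.152 and 0.0984), all edgeR adjusted p. In limma Ftl1 was called on log2(TPM + 1) (log2 change 0.23, adjusted p = 0.035) and not on the log2 deposited signal (0.18, adjusted p = 0.108).

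The balance of heavy to light chain mRNA was lower with FAC in all 4 mice. The Fth1:Ftl1 ratio of TPM was 1.031, 1.015, 1.025 and 1.018 with FAC (mice 1 to 4), against 1.058, 1.12, 1.149 and 1.139 in controls. The groups did not overlap, and the FAC libraries lay within a range narrower than that of the controls. The mean log2 ratio differed by -0.13. A two-sided exact permutation test over 70 assignments of the libraries gave p = 0.0286, the smallest it can give. After adjustment over the 4 ratios and sums computed it was 0.0571, so the difference did not pass. With p at its floor, passing depended on the p of the other quantities, and not passing is no sign that a difference is absent. Fth1 and Ftl1 together came to 1178, 1226, 1246 and 1307 TPM in the FAC libraries and 1054, 1170, 1095 and 1115 TPM in the control libraries. In TPM the lowest FAC sum stood just above the highest control sum, but the groups overlapped when CPM or the deposited signal was summed. In CPM control 2 lay above FAC 1 and narrowly above FAC 2. On the deposited signal it lay above FAC 1, FAC 2 and FAC 3. The difference in the sum did not pass on the deposited signal. Nor did it pass in TPM, where the exact permutation p was at the same floor of 0.0286 before adjustment.

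Ferritin genes have near-identical copies, and how reads were divided among them is uncertain. The copy Ftl1-ps1 held 3.22% to 3.73% as many counts as Ftl1 over the 8 libraries. Its log2 change was 0.12 (SE 0.09, edgeR adjusted p = 0.511). With the counts of 3 named copies added to Ftl1 and of 2 to Fth1, Ftl1 kept a log2 change of 0.19 (edgeR adjusted p = 0.0476) and Fth1 one of 0.07 (0.526). The 4 copies other than Ftl1-ps1 summed to at most 13 counts each over all libraries.

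The genes for ferritin breakdown and lysosomal iron release both rose. Ncoa4 (ENSMUSG00000056234, chromosome 14), whose product binds ferritin and delivers it to autophagosomes, had 99.7, 97.2, 97.9 and 97 CPM in the FAC libraries of mice 1 to 4, against 89.6, 83.8, 86.2 and 77.5 CPM in the control libraries. The FAC libraries lay close together and all stood above the highest control. The log2 change was 0.22 (SE 0.05, edgeR adjusted p = 0.0241), the smallest adjusted p of the 8 genes. The call ended without FAC 2 or 3 (0.0809 and 0.0813) and without control 2, 3 or 4 (0.0618, 0.0549 and 0.0509).

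Mcoln1 (ENSMUSG00000004567, chromosome 8) encodes mucolipin 1, a cation channel of the lysosome membrane. It had 21.3, 22.2, 23.2 and 21.3 CPM with FAC, against 18.8, 15.1, 16.8 and 19 CPM in controls, from 473 to 724 counts a library. All FAC libraries exceeded all controls, by more in mice 2 and 3 than in mice 1 and 4. Its log2 change was 0.34 (SE 0.08, edgeR adjusted p = 0.0339). This was the highest point estimate of the 8 genes, but without control 2 it was 0.28, below the 0.31 of Slc25a28. The call ended without FAC 2 or 3 (0.109 and 0.129) and without control 1, 2 or 3 (0.0519, 0.0892 and 0.095). In limma on log2(TPM + 1) and on the log2 deposited signal neither gene was called (adjusted p = 0.0635 and 0.0633 for Ncoa4, and 0.0966 and 0.106 for Mcoln1).

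The promoter of Mcoln1 is printed because this gene rose and is known as a target of TFEB, the transcription factor that drives lysosomal genes through E-boxes. RefSeq promoter windows, from 250 bases before to 50 after a start site, were at hand for 7 of the 8 genes (11 windows, GRCm38.p6). The E-box CACGTG, which reads the same on both strands, is in capitals in the Mcoln1 window, chr8:3500269-3500568 on the plus strand:
Mcoln1 promoter: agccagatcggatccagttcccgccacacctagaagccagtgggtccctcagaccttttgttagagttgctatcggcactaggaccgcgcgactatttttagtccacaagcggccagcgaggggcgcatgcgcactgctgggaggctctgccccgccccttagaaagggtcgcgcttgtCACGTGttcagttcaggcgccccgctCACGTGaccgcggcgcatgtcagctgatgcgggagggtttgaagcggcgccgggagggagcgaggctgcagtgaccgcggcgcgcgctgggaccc
The window holds 2 E-boxes, 71 and 45 bases before the start site. Of 32851 promoter windows 7.15% held at least 1 and 0.594% held 2 or more. The one nearer the start site lies in the longer form TCACGTGA, found in 0.974% of windows. Among the other 6 genes with a window, Pcbp1 held 1 E-box. The antioxidant response element core TGACNNNGC, searched on both strands and found in 12.4% of windows, stood in 1 of 3 Ncoa4 windows. A match is no evidence of binding. Tfeb itself, named after its values were seen, was at 3.72 ± 0.955 CPM with FAC and 2.47 ± 0.391 CPM in controls (SD, n = 4 each) and did not pass (log2 change 0.57, SE 0.20, edgeR adjusted p = 0.141). Its relatives Tfe3 and Mitf had log2 changes below 0 and did not pass either (-0.05 and -0.68, edgeR adjusted p = 0.714 and 0.457). Tfe3 was the most abundant of them, at 51.3 CPM with FAC and 52.9 CPM in controls, and Mitf was at 0.257 and 0.421 CPM. A part of these factors in the rise of Mcoln1 was not tested.

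The genes of the cytosolic iron chaperones were slightly lower in every mouse, but neither passed the test. Pcbp1 (ENSMUSG00000051695, chromosome 6) encodes a poly(rC)-binding protein that loads iron into ferritin and also binds RNA. It had 663, 710, 707 and 749 CPM in FAC libraries, against 682, 760, 726 and 753 CPM in control libraries, with overlapping groups. Its log2 change was -0.05, with a 95% interval of -0.14 to 0.05 (edgeR adjusted p = 0.635). Pcbp2 (ENSMUSG00000056851, chromosome 15), its close relative, had 642, 665, 657 and 683 CPM in FAC libraries, against 673, 756, 692 and 723 CPM in control libraries. Only FAC 4 reached into the range of the controls. The log2 change was -0.10 (95% interval -0.19 to -0.02), at an unadjusted p of 0.0234 and an edgeR adjusted p of 0.193 (0.0672 with the replicate block). Of all tested genes, 15.4% were lower with FAC in 4 of 4 mice. The Pcbp1:Pcbp2 ratio of TPM was 0.636, 0.627, 0.652 and 0.658 in FAC libraries and 0.599, 0.608, 0.624 and 0.628 in control libraries. The log2 ratio differed by 0.07 and did not pass (two-sided exact permutation p = 0.0571, and 0.0762 adjusted over the 4 quantities).

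Both mitoferrin genes rose. Slc25a37 (ENSMUSG00000034248, chromosome 14) encodes mitoferrin 1, the mitochondrial iron importer best known from erythroid cells. It had 91.8, 86.4, 90.5 and 75.6 CPM in the FAC libraries of mice 1 to 4, against 70.1, 72.9, 70.3 and 78 CPM in the control libraries. Mice 1 to 3 were higher with FAC and mouse 4 was slightly lower, so the groups overlapped. The log2 change was 0.24 (SE 0.06, edgeR adjusted p = 0.0482), and 0.30 without FAC 4 (0.00516). Slc25a28 (ENSMUSG00000040414, chromosome 19) encodes mitoferrin 2, its counterpart in other tissues. It had 30.3, 32.5, 31.3 and 30.8 CPM with FAC, against 22, 25.2, 24.5 and 29.3 CPM in controls, and control 4 came close to the FAC libraries without reaching them. The log2 change was 0.31 (SE 0.07, edgeR adjusted p = 0.043). The Slc25a37 call ended without FAC 1, 2 or 3 (0.0833, 0.144 and 0.176) or control 1, 2 or 3 (0.132, 0.105 and 0.14). That of Slc25a28 ended without FAC 2, 3 or 4 (0.154, 0.135 and 0.0535) or control 1, 2 or 3 (0.111, 0.107 and 0.124). In limma on log2(TPM + 1) and on the log2 deposited signal the adjusted p were 0.204 and 0.215 for Slc25a37, and 0.233 and 0.301 for Slc25a28.

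The ratio of the mitoferrin genes varied more between mice than between groups. Slc25a37:Slc25a28 in TPM was 1.259, 1.014, 1.089 and 0.9043 with FAC (mice 1 to 4), against 1.232, 0.9684, 1.082 and 1.018 in controls. Mouse 1 was highest in both groups. The log2 ratio differed by -0.02 and did not pass (two-sided exact permutation p = 0.943), with a sign that turned when FAC 2, FAC 4 or control 1 was left out (0.0048, 0.06 and 0.05).

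**Figure D3:**
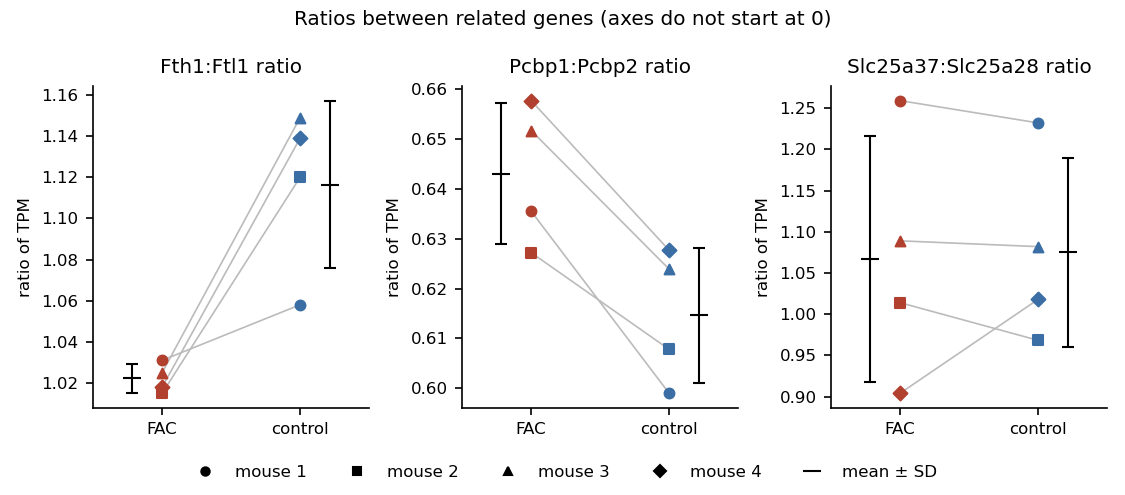
Ratio of TPM between related genes in FAC and control libraries, each grey line joining the cultures of a mouse, with bars for the mean ± SD; the axes do not start at 0. Fth1:Ftl1 is at 1.015 to 1.031 in FAC libraries and at 1.058 to 1.149 in controls, whereas Slc25a37:Slc25a28 runs from 0.9043 to 1.259 with FAC and from 0.9684 to 1.232 in controls.

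The mice did not rank alike across the genes. The log2 difference between the cultures of a mouse was 0.39, 0.25, 0.36 and -0.05 for Slc25a37 in mice 1 to 4, and 0.46, 0.37, 0.35 and 0.07 for Slc25a28. Mouse 4 was thus lowest for both mitoferrin genes. For Ftl1 it was 0.15, 0.07, 0.24 and 0.31, and for Ncoa4 0.15, 0.21, 0.18 and 0.32, so mouse 4 was highest. For Mcoln1 it was 0.19, 0.56, 0.46 and 0.16. No single mouse had the largest difference in all 5 genes. With the replicate block and without mouse 3, however, 0 of the 5 were called, where 165 of all genes tested were. Differences between mice rest on 1 culture of each kind and were not tested.

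**Figure D4:**
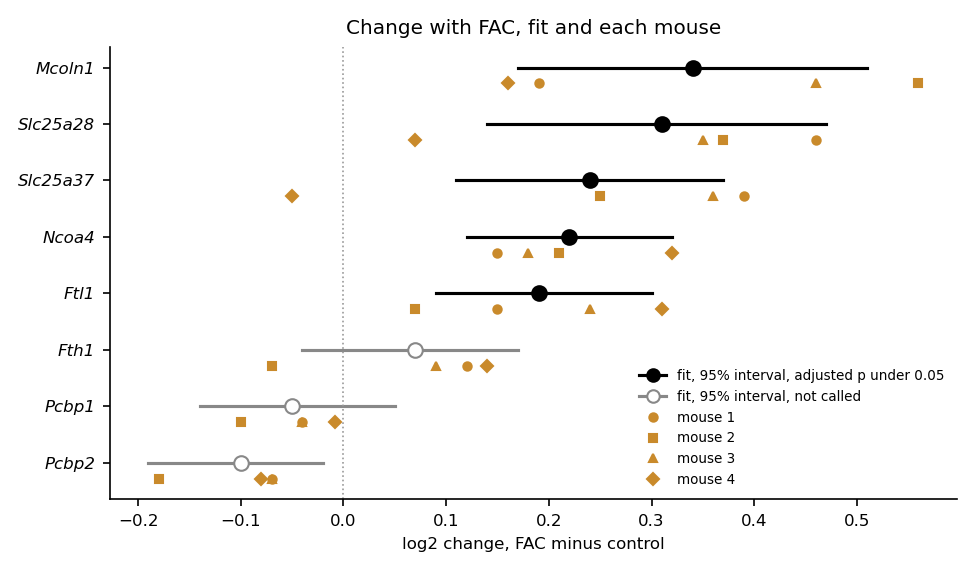
Log2 change of each gene, FAC minus control, as fitted by edgeR with its 95% interval (circles and lines, filled where the adjusted p is under 0.05), and the log2 difference in each of the 4 mice below it. The 5 called genes run from 0.19 for Ftl1 to 0.34 for Mcoln1.

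Genes that work beside these 8 mostly did not pass the test. Of 119 tested neighbours in 5 pathway lists, 1 rose and 1 fell, with a median log2 change of 0.002, against 2.18% of all tested genes higher and 1.1% lower. With the replicate block 4 were higher and 2 lower, where 4.07% and 2.8% of all genes were. Among 31 ferritinophagy and autophagy genes (median 0.06), Atg16l1, which helps attach LC3 to autophagosome membranes, rose. It was at 48.9 ± 1.89 CPM with FAC and 42.3 ± 0.818 CPM in controls (log2 change 0.21, SE 0.05, edgeR adjusted p = 0.0303). That call ended without FAC 2 or 3 (0.104 and 0.113) or any 1 control (0.0676, 0.0717, 0.0649 and 0.0665 for controls 1 to 4). With the replicate block Atg2a, a lipid transfer protein gene of autophagosome growth, was called as well (0.21, edgeR adjusted p = 0.0481). Herc2, the ubiquitin ligase gene that limits NCOA4, and Tax1bp1, an autophagy adaptor gene, did not pass. Their log2 changes were 0.16 (edgeR adjusted p = 0.176) and -0.03 (0.753), and that of Tax1bp1 changed sign without control 1 (0.0048) and in limma on log2(TPM + 1) (0.02).

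At an unadjusted edgeR p under 0.05 were 2463 of all 13378 genes tested and 24 of the 119 neighbours. Of the 31 ferritinophagy and autophagy genes, 9 were. Among 23 lysosomal channel, iron exit and TFEB control genes edgeR called 0, with 5 at an unadjusted p under 0.05 and 0 called by DESeq2 or limma. Among 15 relatives and partners of the poly(rC)-binding proteins edgeR also called 0, with 2 at an unadjusted p under 0.05, 1 by DESeq2 and 0 by limma. The replicate block called Ndor1, a reductase gene of cytosolic iron-sulphur assembly (0.23, edgeR adjusted p = 0.0214, against 0.056 without the block). Glrx3 and Bola2, whose products carry iron and iron-sulphur clusters with PCBP1, did not pass (-0.03 and -0.14, edgeR adjusted p = 0.77 and 0.17).

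Of 18 genes of mitochondrial iron use, Rmdn3 fell to 42.3 ± 0.932 CPM with FAC, against 50.1 ± 3.93 CPM in controls (log2 change -0.25, SE 0.06, edgeR adjusted p = 0.038). Its product tethers mitochondria to the endoplasmic reticulum and is not itself a handler of iron. This call ended without any 1 library except control 3 (adjusted p = 0.0535 to 0.121), while the log2 change stayed between -0.30 and -0.22 over all 8 of these fits. In limma on log2(TPM + 1) the log2 change was -0.14 and was not called (adjusted p = 0.329). Abcb10, whose product steadies mitoferrin 1 in erythroid cells, did not pass (0.34, edgeR adjusted p = 0.251). Among 35 mitochondrial carrier genes other than the mitoferrin genes edgeR called 0. Of these, 5 were at an unadjusted p under 0.05 (2463 of all 13378 genes tested), 2 were called by DESeq2 and 0 by limma. Slc25a38, Slc25a39 and Slc25a40 stand both in this list and among the 18 genes. The replicate block called Slc25a1, the citrate carrier gene, higher (adjusted p = 0.0299) and Slc25a4, an adenine nucleotide carrier gene, lower (0.0145).

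The mix of isoforms was read from the gene length that RSEM weights by isoform abundance. The effective length of Ncoa4 averaged 2420 ± 180 bases with FAC and 2564 ± 88.4 bases in controls, and that of Slc25a28 1627 ± 63.7 bases with FAC and 1538 ± 75 bases in controls (SD, n = 4 each). Slc25a28 was longer with FAC in 4 of 4 mice and Ncoa4 in 1 of 4. By two-sided exact permutation tests 0 of the 8 genes passed, also at an unadjusted p under 0.05, the lowest p being 0.171 for Slc25a28. Pcbp1, with 1 transcript in the files, gives the shift from fragment length alone, 2.44 bases.

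For each of the 8 genes the gene with the most similar profile over the 8 libraries was looked up, by the root mean square difference between mean-centred log2 CPM values. Among 9486 genes compared, the nearest was Ly6e for Fth1 (0.0268), Lpcat1 for Ftl1 (0.034), Cog4 for Ncoa4 (0.0419) and Dgkq for Mcoln1 (0.0491). It was Cnot3 for Pcbp1 (0.0188), Ndufb11 for Pcbp2 (0.0181), Inpp5f for Slc25a37 (0.0435) and Trim39 for Slc25a28 (0.0481). The median difference over all genes compared ran from 0.115 for Pcbp1 to 0.225 for Mcoln1. The spread of the profiles themselves, on the same scale, was from 0.0662 for Pcbp1 to 0.199 for Mcoln1 (0.0814 for Fth1). Each neighbour is the nearest of all genes compared, so a small difference follows from the choice, and all profiles share the same 8 libraries.

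Macrophages are rich in ferritin transcripts and erythroid cells in those of mitoferrin 1, so their markers were read beside them. Of 6 macrophage or monocyte markers Lyz2 and Fcgr1 had 0 counts in all libraries, and the summed level was 2.27 to 3.72 CPM with FAC and 1.83 to 2.41 CPM in controls. Cd68, chosen after its values were seen, made up most of that sum and did not pass (log2 change 0.46, edgeR adjusted p = 0.26). The 6 erythroid markers summed to at most 0.191 CPM in FAC libraries and to 0.0544 to 4.15 CPM in controls, the highest in control 3, where globin transcripts were found. Without control 3 the log2 change was 0.22 for Slc25a37 and 0.29 for Slc25a28. Summed markers of CD8 T cells were at 6.26 to 8.99 CPM with FAC and 7.99 to 10.9 CPM in controls. Nearly all of that sum was Cd8b1, which did not pass (log2 change -0.30, edgeR adjusted p = 0.242). Cd8a averaged only 0.163 CPM with FAC and 0.0953 CPM in controls, so the sum is weak evidence of CD8 T cells. Summed markers of B cells, dendritic cells and NK cells stayed at or below 0.379 CPM in every library. The part of these cells in the results was not tested.

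**Figure D5:**
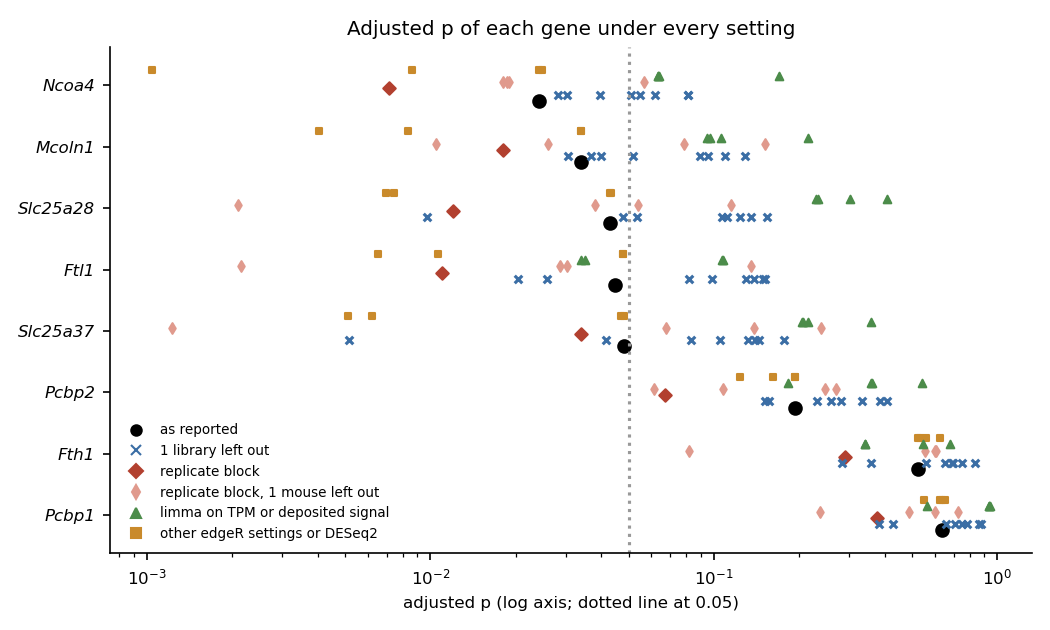
Adjusted p (log axis) of the 8 genes as reported and under every other setting, with a dotted line at 0.05. The 5 called genes lie on both sides of the line when 1 library is left out, and Pcbp2, Fth1 and Pcbp1 lie to its right in all settings.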

How the data were processed

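Per the submitters' processing notes, the tools were RSEM 1.3.1, STAR 2.7.6a, DESeq2 1.26.0, DESeq, R 3.6.3 and FastQC, with GRCm39 as the build. No gene annotation is named there. Each library has deposited expected counts, TPM, FPKM (not used) and lengths in bases for 57010 genes, per the file headers. The deposited normalised signal covers 13751 genes, scaled by the authors between libraries by an unstated method.

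Libraries came from a stranded mRNA kit (250 ng RNA), per the labels' protocols. Expected counts were rounded to whole numbers and tested with edgeR 4.0.16 (R 4.3.3; quasi-likelihood, TMM, minimum count 10 and total 15), on group alone, with FAC and control libraries numbered by mouse. DESeq2 1.42.0 and limma 3.58.1 (pseudocounts of 1 and 0.1) were alternatives, as was the mouse as a replicate block, since same-numbered cultures come from 1 animal. Across genes, deviations from the group mean correlated at r = 0.137, 0.0165, 0.0647 and 0.139 within mice 1 to 4, against at most 0.0331 between mice. The SE is the change over the square root of F, and the interval uses the fit's degrees of freedom. In simulated data for the 13378 tested genes, edgeR recovered 39% of genes changed 1.25-fold and 73% of those changed 2-fold. It called 112 changed genes and also 9 genes that had not been changed. The simulated counts used the dispersions estimated from the real libraries. Totals make 1 count 0.0268 to 0.0394 CPM, a step that takes in counting only and no variation between libraries. No molecular identifiers are named.

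Of the identifiers, 52034 had a symbol, 13508 from the deposited table and the others from GENCODE M21; where several shared one (Ndor1), that with most counts was used; reference sequences are of GRCm38 and no coordinate was converted. The 8 genes and the lists were chosen with earlier results of these data known. Named neighbours are those called in a list (at most 4 in a direction) and fixed partners of the 8 (those called only with the replicate block were added after their values were seen); the most similar gene of each was the nearest with an established symbol and a mean log2 CPM of at least 1.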

Additional observations from a re-analysis of the deposited data

How the results depend on the processing

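No gene of the 8 changed direction in any of 21 alternatives. All 5 calls held with RLE factors, DESeq2, no filter on low counts, the replicate block and ferritin copies summed, a setting chosen after seeing the data. The number of the 8 called was 3 with the replicate block without mouse 1 or mouse 2, 0 without mouse 3, 1 in limma on log2(TPM + 1) or on log2(TPM + 0.1), and 0 on log2(TPM + 1) with no filter or on the log2 deposited signal. With 1 library left out it ran from 0 to 4. Over all genes 438 were called, 797 by DESeq2, 736 with no filter, 919 with the replicate block (165 and 1217 without mouse 3 and 4), 144, 138 and 47 in the limma fits on TPM (the last with no filter), 156 on the deposited signal, and 147 to 549 with 1 library left out. The cause was not tested. The share of calls that were higher also moved, as 112 of 144 were higher in limma on log2(TPM + 1) against 291 of 438. The Fth1:Ftl1 and Pcbp1:Pcbp2 differences kept their sign in every setting. With 4 against 4 libraries the smallest exact p is 0.0286 before adjustment over the 4 quantities, so adjusted p above 0.05 with fewer libraries say nothing of stability. The Slc25a37:Slc25a28 difference ran from -0.10 to 0.06 with 1 library left out. With the replicate block (sign flips within mouse) the smallest p is 0.125, so no ratio could pass. For Tax1bp1 the log2 change turned to 0.02 in all 3 limma fits on TPM and to 0.0048 without control 1. With the replicate block without mouse 2, Mcoln1 changed by 0.27 and Slc25a28 by 0.29. The replicate block changed no call of the 8 genes. At 473 to 724 counts a library, Mcoln1 had the fewest counts of the 8 genes, and the part of depth in its spread was not tested.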
